A study of Rattus norvegicus with 6 samples.

Results

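Collagens are the main structural proteins of the extracellular matrix, and each is made of chains that wind around one another into a long helix. Fibrillar collagens (I, II, III, V, XI, XXIV and XXVII) build the tough fibres of skin, bone and the coverings of the brain. Type IV collagen forms the flexible sheet of basement membranes, which in the brain surrounds blood vessels and lies under the meninges. The remaining types link fibrils, make beaded filaments or sit in cell membranes, and a few of them, such as collagen XIX, are made by neurons. The 36 collagen genes described here are those whose platform gene symbol has the form Col, a number, a and a number, out of 18166 genes with a single symbol. They comprised 11 fibrillar genes, 5 genes of type IV and 20 others, and each was read from its probe set with the highest mean over the 6 arrays. Of 45 collagen genes in the class table, 9 had no uniquely named probe set and were not analysed here.

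RNA came from primary rat hippocampal neurons, dissected from embryos at day 18 and kept with 10 µM FUDR (5-fluorodeoxyuridine), which stops dividing cells such as fibroblasts and glia from multiplying. At 4 days in vitro the cultures received adeno-associated virus (1800000 infectious units in each ml). The virus carried a short hairpin RNA (shRNA), either a control shRNA or one against Ncoa3, a coactivator of nuclear receptors, and the cells were harvested at day 14 in vitro. Each of 3 numbered experiments gave 1 control shRNA array and 1 Ncoa3 shRNA array, so each group had 3 arrays. The sources used here do not name the promoter that drives the hairpin, the hairpin sequence or the strain.

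Ncoa3 itself had a deposited log2 signal of 8.79, 8.88 and 8.37 with control shRNA and of 7.43, 7.43 and 7.39 with Ncoa3 shRNA in experiments 1 to 3, so the groups did not overlap. The 8 neuron markers (Tubb3, Map2, Snap25 and others) had mean signals from 11.67 to 13.21, among the bright genes of these arrays. The arrays of a group shared many exact values that the other group did not have, and the highest signal was one value on all control shRNA arrays and another on all Ncoa3 shRNA arrays. The groups therefore appear to have been summarised apart, and the effect of such a run cannot be told apart from that of the hairpin. The median gene differed by -0.25 between the groups in the deposited signals. Changes are for that reason given after all 6 arrays were brought to the same distribution (quantile normalization), as Ncoa3 shRNA minus control on the log2 scale, unless called deposited. In bulk RNA, fewer cells of a type and less RNA per cell cannot be told apart.

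The collagen probe sets were dim and nearly flat across arrays. Their mean deposited signals ran from 6.17 for Col6a6 to 8.86 for Col23a1, and 33 of 36 lay below the median gene (7.89), as did 10 of 11 fibrillar, 4 of 5 type IV and 19 of 20 other collagens. Signals of different probe sets depend on the probes and set no order of expression between genes. The same deposited value stood on all 3 control shRNA arrays for 12 collagens (33.3%, against 22.5% of all genes), on all 3 Ncoa3 shRNA arrays for 21 (58.3%, against 22.4%), and in both groups for 9 (25.0%, against 10.7%). For these 9 genes, among them Col3a1, Col4a5, Col6a2 and Col18a1, the deposited table carries no spread between experiments at all. Their spread after quantile normalization comes from the normalization alone, so a p-value for them does not measure variation between cultures.

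**Figure D1:**
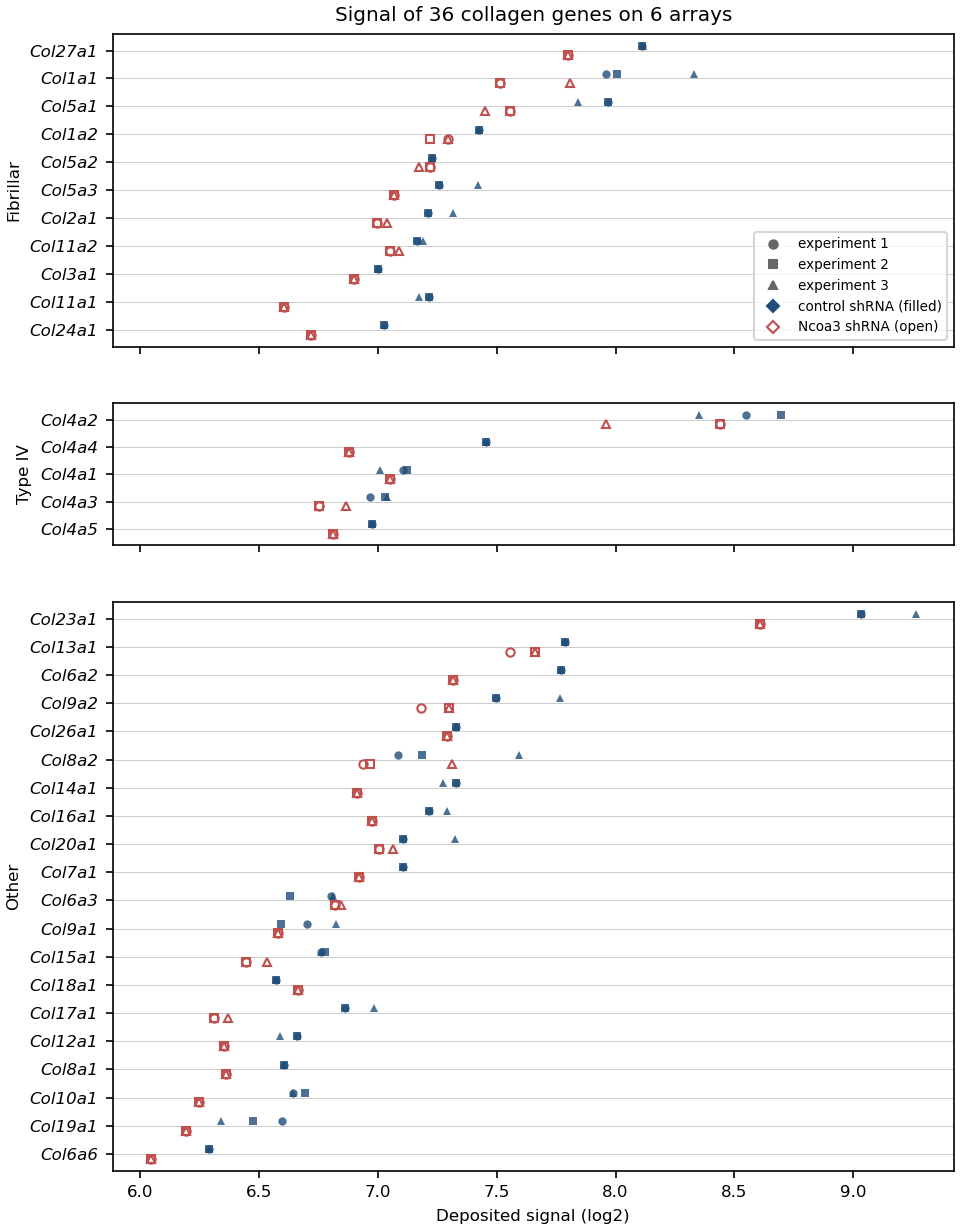
Deposited log2 signal (x axis) of the 36 collagen genes (rows) on 6 arrays, with fibrillar, type IV and other collagens in separate panels. Filled symbols are control shRNA arrays, open symbols Ncoa3 shRNA arrays, and the shape gives the experiment. Col23a1 and Col4a2 are the brightest, most genes lie between 6 and 8, and for many genes the symbols of a group fall on a single point.

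How many collagens limma called once the offset was removed, at an adjusted p under 0.05, depended on the fit. A block on experiments, which pairs the arrays of each experiment, gave 18 of 36 (50%, against 39.3% of all genes). The fit without a block gave fewer, and it is the one used below unless the block is named. It called 5 of the 36 (13.9%, where 19.5% of all genes were called in either direction), 2 higher and 3 lower. In that fit the share was no larger than the background. Over all genes 10.5% passed as higher and 9.04% as lower. The 2 that rose were Col18a1, whose product releases the fragment endostatin from vascular basement membranes, and Col6a3, the largest chain of the beaded filaments of collagen VI. The 3 that fell were Col17a1, a membrane collagen of epithelial attachment sites, Col4a4, a basement membrane chain, and Col11a1, a chain that helps to start thin fibrils. None of the 36 was called with a change of 1.5-fold or more, as 2.22% of all genes were. An unadjusted p under 0.05 from limma was found for 10 of the 36 collagens, and for 6111 of all 18166 genes. The median collagen stood at 0.04, against 0.01 for all genes. Col6a3, Col17a1 and Col18a1 were named after their values were seen.

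Col18a1 had a deposited signal of 6.57 on each control shRNA array and of 6.67 on each Ncoa3 shRNA array. The groups did not overlap, but the table shows no variation within them. Its change was 0.38 ± 0.07 (SE, n = 3 per group), 1.3-fold higher, with limma's adjusted p = 0.0191. Col6a3 stood at 6.80, 6.63 and 6.81 with control shRNA and at 6.82, 6.82 and 6.84 with Ncoa3 shRNA. The deposited groups nearly touched, since only the control shRNA array of experiment 2 was clearly low. Relative to the offset Col6a3 rose by 0.36 ± 0.07 (SE), 1.29-fold, with limma's adjusted p = 0.0191, and by 0.31, 0.47 and 0.31 in the experiments. In the deposited values the difference of Col6a3 was 0.08 and limma did not call it (adjusted p = 0.301).

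Col17a1 stood at 6.86, 6.86 and 6.98 with control shRNA and at 6.31, 6.31 and 6.37 with Ncoa3 shRNA. All Ncoa3 shRNA arrays lay below all control arrays, and its change was -0.29 ± 0.05 (SE; 3 arrays per group) with an adjusted p of 0.0136 from limma. Col11a1 stood at 7.22, 7.22 and 7.17 with control shRNA and at 6.61 on every Ncoa3 shRNA array. Its groups were apart too, and the change was -0.31 ± 0.08 (SE; limma's adjusted p = 0.0465). Col4a4 stood at 7.46 on every control array and at 6.88 on every Ncoa3 shRNA array, a change of -0.29 ± 0.07 (SE; limma's adjusted p = 0.0405). Col17a1, Col11a1 and Col4a4 were below control in every experiment, by 0.26 to 0.34 on the log2 scale relative to the offset. The call of Col11a1 ended with median centring (adjusted p = 0.0620) and with genes of mean signal under 5 left out (adjusted p = 0.0527), and that of Col4a4 with median centring (adjusted p = 0.0712).

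The 5 calls depended on which arrays were kept. Limma called 0 of the 36 collagens without control shRNA replicate 2, Ncoa3 shRNA replicate 1 or Ncoa3 shRNA replicate 2. The same held without experiment 1 or experiment 2, and in these 5 settings 3 to 8 collagens had an unadjusted p under 0.05. Without experiment 2 limma also called 0 of all 18166 genes, of which 3071 had an unadjusted p under 0.05. Without control shRNA replicate 1 only Col6a3 passed. Without Ncoa3 shRNA replicate 3, 6 collagens passed, but Col11a1 and Col4a4 were not among them (adjusted p = 0.0817 and 0.0585). Without experiment 3, 22 of 36 passed, 13 higher and 9 lower, all of the 5 included, while the number over all genes rose from 3548 to 8354. With the experiment as a block, 18 collagens passed (50%, against 39.3% of all genes), 10 higher and 8 lower, and again all of the 5 were among them. Of these 18 genes, 6 showed no deposited variation within either group.

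**Figure D2:**
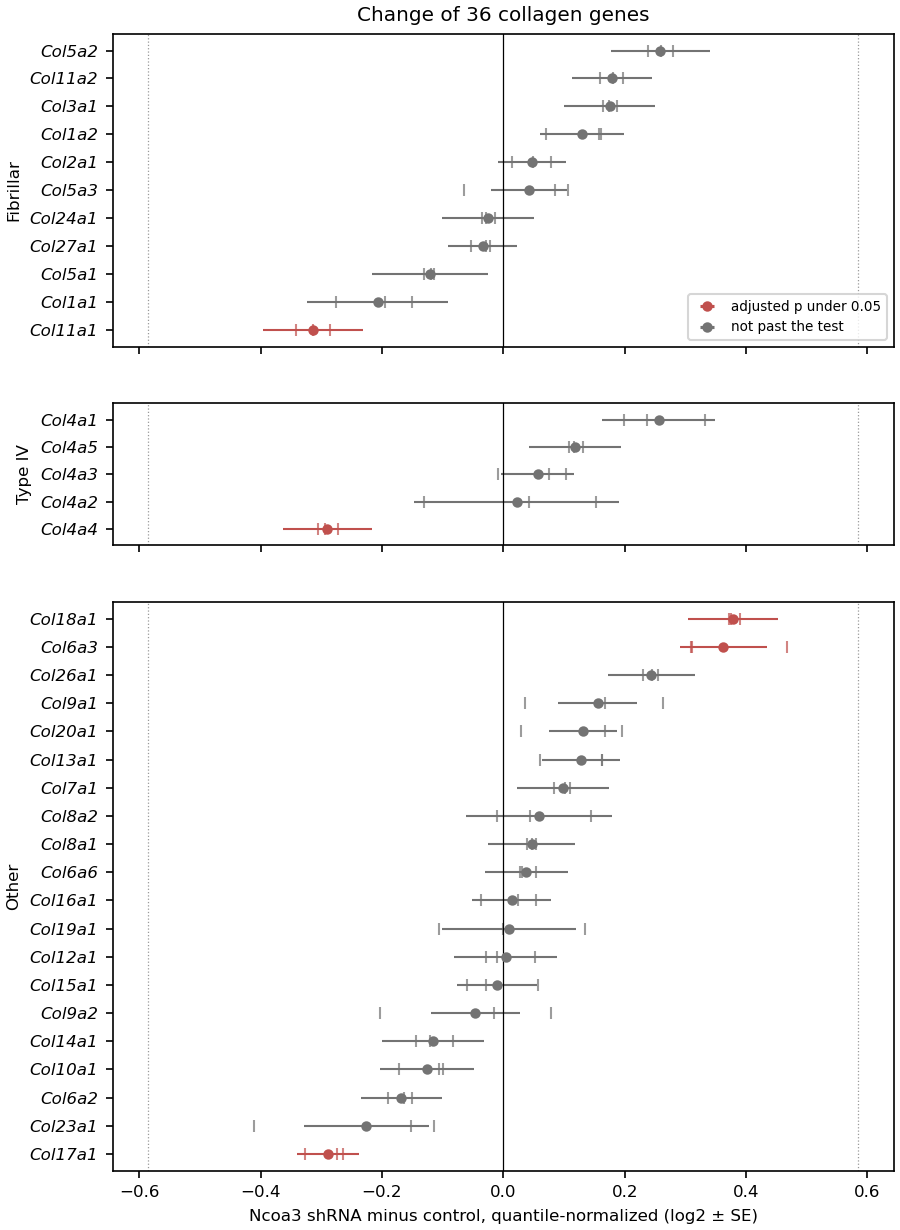
Change of the 36 collagen genes (rows) with Ncoa3 shRNA, in log2 units after quantile normalization (x axis). Points with bars are the mean and SE over 3 arrays per group, ticks are the experiments, red marks an adjusted p under 0.05 and dotted lines mark 1.5-fold. Col18a1 and Col6a3 stand on the right, Col11a1, Col4a4 and Col17a1 on the left, and no gene reaches 1.5-fold.

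The stretch of sequence before the start of transcription is shown for the genes that passed, since these are the collagens that limma called after quantile normalization without the block. Windows from RefSeq (GRCr8), 250 bases before to 50 after a start, were found for 30 of the 36 genes. They were searched on both strands for the GC box GGGCGG, the CCAAT box CCAAT, the TATA box TATAAA and the nuclear receptor half-site AGGTCA, with matches that overlap counted apart. The last 100 bases before the start follow for 4 of the 5 genes, 5′ to 3′ on the gene's strand, with matches in capitals. They lie at chr20:11473545-11473644 (plus strand) for Col18a1, chr9:98886959-98887058 (minus strand) for Col6a3, chr1:256518858-256518957 (minus strand) for Col17a1 and chr2:204509036-204509135 (plus strand) for Col11a1.
Col18a1: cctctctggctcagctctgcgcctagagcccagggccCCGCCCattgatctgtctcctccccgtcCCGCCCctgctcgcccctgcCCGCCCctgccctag
Col6a3: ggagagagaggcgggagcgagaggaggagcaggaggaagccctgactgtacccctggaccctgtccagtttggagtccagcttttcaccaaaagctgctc
Col17a1: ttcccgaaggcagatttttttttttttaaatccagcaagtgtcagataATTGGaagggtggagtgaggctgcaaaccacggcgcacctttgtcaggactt
Col11a1: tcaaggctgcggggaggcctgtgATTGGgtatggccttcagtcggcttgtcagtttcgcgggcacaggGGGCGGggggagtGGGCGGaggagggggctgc
The capitals mark GC boxes, read on the opposite strand in Col18a1, and CCAAT boxes, read on the opposite strand as ATTGG. The printed stretch of Col18a1 holds 3 GC boxes, and the whole window of Col6a3 holds 0 of the 4 motifs. Over the collagens, a GC box stood in the windows of 18 of 30 genes (33.1% of all 33469 windows hold it), a CCAAT box in 8 (37.5%), a TATA box in 4 (14.2%) and the half-site in 2, Col4a4 and Col7a1 (16.2%). These matches describe letters only and do not show binding.

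Of the 11 fibrillar genes, 0 rose and 1 fell, Col11a1, while 10 did not pass limma's test, and 3 of the 11 had an unadjusted p under 0.05. Blocking on the experiment gave 4 higher and 3 lower (63.6%, against 39.3% of all genes). The median change of the fibrillar genes was 0.04, close to that of all genes. The chains of collagen I, the main collagen of bone and of fibroblasts, had changes of opposite sign that limma did not call. Col1a1 stood at 7.96, 8.01 and 8.33 with control shRNA and at 7.51, 7.51 and 7.81 with Ncoa3 shRNA. The deposited groups did not overlap and both were highest in experiment 3, but relative to the offset the change was -0.21 ± 0.12 (SE; limma's adjusted p = 0.272, and 0.0241 with the block). Col1a2, the partner chain, stood at 7.43 on every control array and at 7.30, 7.22 and 7.30 with Ncoa3 shRNA, a change of 0.13 ± 0.07 (SE; adjusted p = 0.247, and 0.0446 with the block). In the deposited values Col1a2 was lower, at -0.16. Within an array, Col1a1 minus Col1a2 was 0.69 ± 0.265 in the controls and 0.35 ± 0.183 after Ncoa3 silencing (SD, n = 3 each), a difference of -0.34 with p = 0.2 in an exact two-sided permutation test.

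Col3a1, the companion of collagen I in soft tissue, had a single deposited value in each group, lower by 0.10 with Ncoa3 shRNA, and its change relative to the offset was 0.18 (adjusted p = 0.160, and 0.0105 with the block). Col5a1 and Col5a2 are chains of collagen V, which sits inside collagen I fibrils and limits their width. Col5a1 stood at 7.97, 7.97 and 7.84 with control shRNA and at 7.56, 7.56 and 7.45 with Ncoa3 shRNA, with a change of -0.12 ± 0.10 (SE; limma's adjusted p = 0.433, and 0.0300 with the block). Its dimmer probe set gave a deposited difference of -0.40, against -0.41 on the one used. Col5a2 stood at 7.23 on every control array and at 7.22, 7.22 and 7.17 with Ncoa3 shRNA, a change of 0.26 (adjusted p = 0.0754, and 0.00631 with the block). For the chains of collagen XI, Col11a1 minus Col11a2 within an array went from 0.03 ± 0.039 to -0.46 ± 0.030 (SD, n = 3 each). Col27a1, whose product is found in cartilage, had the highest fibrillar mean signal. It stood at 8.11, 8.11 and 8.12 with control shRNA and at 7.80 on every Ncoa3 shRNA array, so that its groups were apart in the deposited values by about the offset of all genes, and its change was -0.03 (adjusted p = 0.727).

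Of the 5 type IV genes, 0 rose and 1 fell, Col4a4, and 4 did not pass limma's test. The block on experiments gave 2 higher (Col4a1 and Col4a5) and 1 lower (60%, against 39.3% of all genes). Col4a1 and Col4a2 are the chains of nearly all basement membranes and are transcribed in opposite directions from a common start region. In the RefSeq table the starts lie 76 bases apart, at chr16:84885521-84885596 (GRCr8, plus strand), and this stretch is shown because both genes share it.
Col4a1 and Col4a2: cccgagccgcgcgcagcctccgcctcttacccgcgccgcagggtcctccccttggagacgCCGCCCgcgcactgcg
The capitals mark a GC box on the opposite strand. Col4a2 stood at 8.55, 8.70 and 8.35 with control shRNA and at 8.44, 8.44 and 7.96 with Ncoa3 shRNA, which overlap, and the change was 0.02 ± 0.17 (SE; adjusted p = 0.947). Col4a1 stood at 7.11, 7.12 and 7.01 with control shRNA and at 7.05 on every Ncoa3 shRNA array. The deposited difference was -0.03, and relative to the offset the change was 0.26 ± 0.09 (SE; limma's adjusted p = 0.110, and 0.0151 with the block). Col4a1 minus Col4a2 within an array was -1.45 ± 0.056 in the controls and -1.21 ± 0.211 after Ncoa3 silencing (SD, n = 3 each), a shift of 0.23.

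Col4a3, Col4a4 and Col4a5 encode the chains of a second type IV network, known best from the filter of the kidney. Col4a3 and Col4a4 also lie head to head, with 412 bases between their starts, and the RefSeq windows share the stretch chr9:91323740-91323827 (GRCr8, plus strand), which holds 0 of the 4 motifs and is shown because Col4a4 was called and its partner was not.
Col4a3 and Col4a4: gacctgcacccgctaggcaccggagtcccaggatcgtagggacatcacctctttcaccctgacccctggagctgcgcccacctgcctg
Col4a3 stood at 6.97, 7.03 and 7.04 with control shRNA and at 6.75, 6.75 and 6.87 with Ncoa3 shRNA, so the deposited groups were apart. Relative to the offset its change was 0.06 ± 0.06 (SE; adjusted p = 0.565), where Col4a4 fell by 0.29 on the log2 scale. Col4a3 minus Col4a4 within an array was -0.47, -0.41 and -0.42 with control shRNA and -0.12, -0.12 and -0.01 with Ncoa3 shRNA. Every Ncoa3 shRNA array lay above every control array, a shift of 0.35. Col4a5 stood at 6.98 on every control array and at 6.81 on every Ncoa3 shRNA array, with a change of 0.12 (adjusted p = 0.334, and 0.0225 with the block), and Col4a5 minus Col4a4 within an array shifted by 0.41.

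In all, 11 such pairs were compared within arrays, chosen as chains of the same collagen type or as neighbours. For 8 of them the exact two-sided permutation test gave p = 0.1, which is the lower limit for groups of 3, or 0.138 after Benjamini-Hochberg adjustment over the 11 pairs, so this test could not bring any pair past 0.05. The shift was widest for the collagen VI chains, Col6a2 minus Col6a3, which went from 1.02 ± 0.090 to 0.49 ± 0.005 (SD, n = 3 each). Col8a1 minus Col8a2 shifted least, from -0.70 ± 0.282 to -0.71 ± 0.216 (SD, n = 3 each; exact permutation p = 0.9).

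Of the 20 other collagens, 2 rose and 1 fell and 17 did not pass limma's test, with a median change of 0.03. The block on experiments gave 4 higher and 4 lower (40%, against 39.3% of all genes). Among the 3 membrane-spanning collagens 1 fell, Col17a1. Col23a1, another of them, had the highest signal of all collagens, at 9.03, 9.03 and 9.26 with control shRNA and 8.61 on every Ncoa3 shRNA array. Its groups did not overlap, but its change was -0.23 ± 0.10 (SE; limma's adjusted p = 0.187) and came mostly from experiment 3, with -0.15, -0.11 and -0.41 in turn. Col13a1, which has a role at nerve-muscle synapses, stood at 7.79 on every control array and at 7.56, 7.66 and 7.66 with Ncoa3 shRNA, a change of 0.13 (adjusted p = 0.219).

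Of the 3 chains of collagen VI, Col6a3 rose. Col6a2 stood at 7.77 on every control array and at 7.32 on every Ncoa3 shRNA array, a change of -0.17 ± 0.07 (SE; adjusted p = 0.136, and 0.0158 with the block), and Col6a6 differed by 0.04 (adjusted p = 0.750). The 7 fibril-associated collagens (Col9a1, Col9a2, Col12a1, Col14a1, Col16a1, Col19a1 and Col20a1) sit on the surface of other fibrils, and 0 of 7 passed limma's test, with changes from -0.12 to 0.16. Col9a2 stood at 7.50, 7.50 and 7.77 with control shRNA and at 7.18, 7.30 and 7.30 with Ncoa3 shRNA, and its change was -0.05 (adjusted p = 0.711). Col19a1, known from interneurons of the hippocampus, stood at 6.60, 6.48 and 6.34 with control shRNA and at 6.19 on every Ncoa3 shRNA array, and its change was 0.01 (adjusted p = 0.967). Col26a1 stood at 7.33 on every control array and at 7.29 on every Ncoa3 shRNA array, a change of 0.24 (adjusted p = 0.0631, and 0.00657 with the block). Col3a1, Col5a2, Col11a2, Col6a6 and Col19a1 were named after their values were seen.

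In the deposited values nearly all collagens were lower with Ncoa3 shRNA, like most genes. There 28 of 36 were called lower and 1, Col18a1, higher (80.6% in either direction, against 47.2% of all genes, and 43.3% called lower). The median collagen differed by -0.24 and the median gene by -0.25. The larger share of calls went with a smaller spread: the median SD within a group was 0.03 for collagens with control shRNA and 0.00 with Ncoa3 shRNA, against 0.08 and 0.09 for all genes. The deposited groups did not overlap for 33 of 36 collagens (61% of all genes), and after quantile normalization for 16 of 36 (40.5%).

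The experiments were compared next, since each gave an array in both groups. In the deposited values, limma's F test over the 3 experiments called 0 of 36 collagens, where it called 1.91% of all genes, and 5 collagens had an unadjusted p under 0.05. The lowest adjusted p-values were 0.0640 for Col1a1, 0.0644 for Col5a1 and 0.0808 for Col8a2. In experiment 3, Col1a1 was above the mean of experiments 1 and 2 by 0.35 with control shRNA and 0.29 with Ncoa3 shRNA. Col8a2, a collagen of the corneal Descemet membrane and of vessels, stood at 7.08, 7.19 and 7.59 with control shRNA and at 6.94, 6.97 and 7.31 with Ncoa3 shRNA. It was thus highest in experiment 3 in both groups, by 0.46 and 0.36. Col4a2 was lowest in experiment 3 in both groups, with differences of -0.27 and -0.48 (adjusted p = 0.189).

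**Figure D3:**
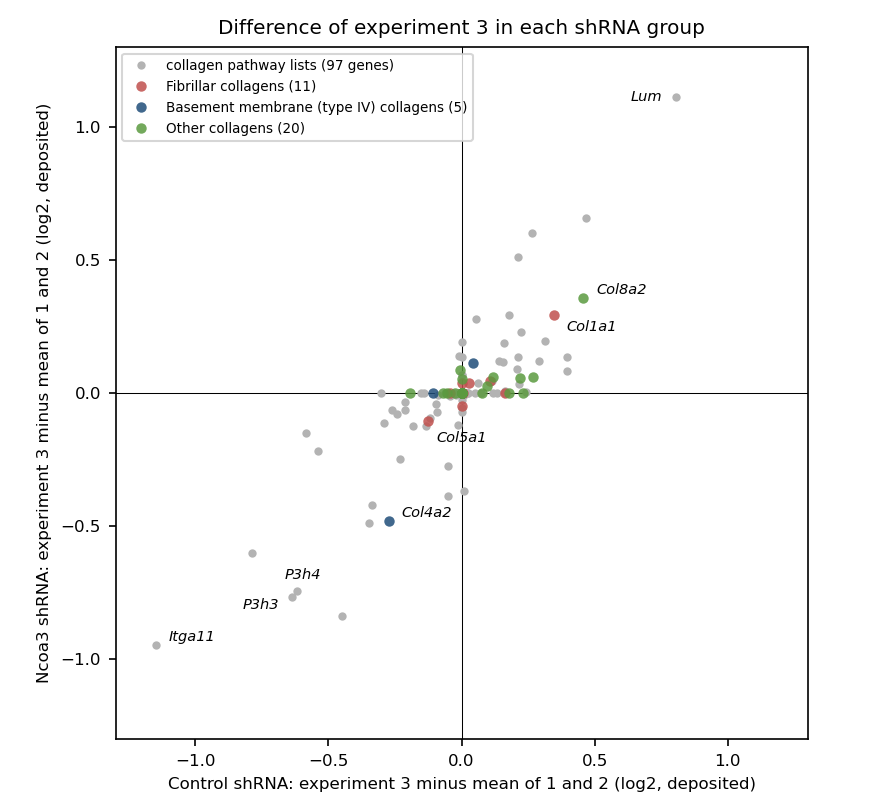
Deposited signal of experiment 3 minus the mean of experiments 1 and 2 (log2), with control shRNA on the x axis and Ncoa3 shRNA on the y axis. Coloured points are the 36 collagens by class, grey points 97 genes of 6 collagen pathway lists. Col1a1 and Col8a2 lie in the upper right and Col4a2 in the lower left, most other collagens lie near 0, and Lum and Itga11 lie far from it.

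After quantile normalization the same test called 14 of 36 collagens (18.8% of all genes), 2 of them higher and 12 lower in experiment 3. Of these 14 genes, 7 showed no deposited variation within either group, and 11 none within at least 1 group. Experiment 3 had the highest median probe set signal in both groups (7.25 and 6.97), and the normalization placed an unchanging value lower there, by 0.15 for Col3a1 with control shRNA. Of the collagens called, Col1a1 (limma's adjusted p = 0.0485), Col8a2 (0.0496) and Col5a1 (0.0484) were those whose deposited values varied in both groups. Col12a1 and Col11a1 varied with control shRNA alone (6.66, 6.66 and 6.59 for Col12a1, and 6.35 on every Ncoa3 shRNA array). With any experiment left out, limma called 0 collagens, and 21, 21 and 0 had an unadjusted p under 0.05 without experiments 1, 2 and 3.

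**Figure D4:**
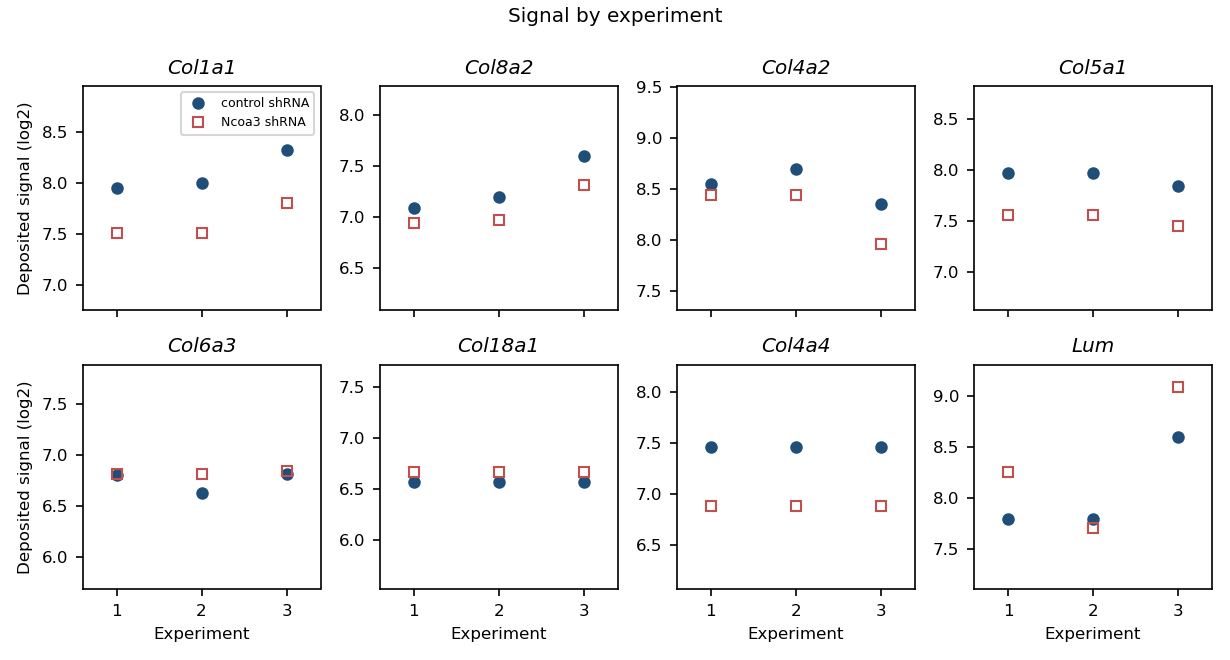
Deposited log2 signal (y axis, the same span in each panel) by experiment (x axis) for 7 collagens and Lum, with filled circles for control shRNA and open squares for Ncoa3 shRNA, 1 array each. Col1a1, Col8a2 and Lum are highest in experiment 3 in both groups, Col4a2 is lowest there, and Col18a1 and, to 2 decimals, Col4a4 show the same value in all experiments of a group.

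Markers of other cell types were compared between the experiments and between the groups. The 6 astrocyte markers all passed the F test over experiments after quantile normalization (18.8% of all genes did), each highest in experiment 3. In the deposited values limma's F test called 0 of the 6, where it called 1.91% of all genes. All 6 had an unadjusted p under 0.05 there, as did 4700 of all 18166 genes. The summed linear signal of the astrocyte markers after quantile normalization was 6537, 6957 and 8811 with control shRNA and 5736, 6428 and 8743 with Ncoa3 shRNA. The 11 fibroblast and meningeal markers, none of them a collagen, summed to between 2556 and 3015 with control shRNA and between 3344 and 3973 with Ncoa3 shRNA, where the groups did not overlap. Dcn, the gene of the fibril-binding proteoglycan decorin, made up 48.6% to 60.7% of that sum, and without it the ranges were 1304 to 1389 and 1413 to 1703. The summed microglial markers (318 to 352 with control shRNA, 382 to 467 with Ncoa3 shRNA) and mural markers (900 to 909 and 916 to 964) did not overlap either. Of the 6 microglial markers 5 were above 0, Cx3cr1 most (0.99), and Ptprc was below (-0.21). Gene by gene, the groups were apart for 4 of 11 fibroblast and meningeal, 3 of 6 microglial and 2 of 6 mural markers. Over all genes 40.5% were apart after quantile normalization. In the fibroblast and meningeal list 2 of 11 rose with Ncoa3 shRNA and 0 fell (18.2%, near the 19.5% of all genes called in either direction): Dcn by 0.52 (limma's adjusted p = 0.0385) and Pdgfra by 0.32 (adjusted p = 0.0252). The call of Dcn ended in the deposited values (0.31, adjusted p = 0.0948) and in 8 of 9 settings that left out an array or an experiment, with adjusted p-values up to 0.258, the exception being the one without control shRNA replicate 3. Lum, the gene of lumican, stood at 7.79, 7.79 and 8.60 with control shRNA and at 8.25, 7.70 and 9.09 with Ncoa3 shRNA. It was highest in experiment 3 in both groups. In the deposited values of experiment 3, 2 of the 11 markers of its list were above the mean of experiments 1 and 2 in both groups. There 1 was below it in both. After quantile normalization limma's F test called 4 of the 11 (18.8% of all genes), with 1 higher and 3 lower in experiment 3. Of the other lists, 2 of 6 microglial markers rose and 1 fell, 1 of 6 mural markers rose, 1 of 5 endothelial and 2 of 6 oligodendrocyte lineage markers fell, and 0 of 6 astrocyte and 0 of 8 neuron markers passed, where 10.5% of all genes were called higher and 9.04% lower. No marker is at 0 in log2 array signals. The part of these cells in the collagen values was not tested.

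The genes that make, bind and cut collagen were read from 6 lists with 97 measured genes in all. Of these 6 rose and 10 fell with a median change of 0.00, where 19.5% of all genes passed. The block on experiments gave 17 higher and 22 lower, where 39.3% of all genes passed. Of 27 genes for processing and crosslinking, 1 rose and 3 fell. Adamts2, which trims the end off fibrillar procollagen, stood at 7.91, 7.91 and 7.87 with control shRNA and at 7.25, 7.25 and 7.24 with Ncoa3 shRNA. All of its Ncoa3 shRNA arrays were lower, and it fell by 0.37 on the log2 scale (SE 0.07; limma's adjusted p = 0.0192). Loxl4, a crosslinking oxidase, changed by -0.33 (limma's adjusted p = 0.0221) and Pcolce, an enhancer of procollagen trimming, by -0.26 (0.0498). Lox, the founding crosslinking oxidase, changed by 0.21 (0.0260), although it was lower in the deposited values at -0.06. With an array or an experiment left out, the calls of Adamts2 and Lox each ended in 6 of 9 settings. Those of Loxl4 and Pcolce ended in 5 and 7.

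Of 15 basement membrane partners 1 rose and 0 fell. Nid2, a nidogen that ties laminin to type IV collagen, stood at 7.58 on every control array and at 7.96 on every Ncoa3 shRNA array, and it rose 1.59-fold, by 0.67 ± 0.06 (SE; limma's adjusted p = 0.00176). Of 15 fibril-binding matrix proteins 2 rose and 2 fell. Fn1, the gene of fibronectin, on which cells lay down collagen, stood at 8.27 on every control array and at 8.64 on every Ncoa3 shRNA array. It rose 1.57-fold, by 0.65 ± 0.06 (SE; adjusted p = 0.00156), and Dcn is the other that rose. Ogn (osteoglycin) changed by -0.45 (adjusted p = 0.0102) and Matn3 (matrilin) by -0.33 (0.0191). Of the 16 called genes in these lists, 7 had a single deposited value in each group, as Col18a1 did, so their p-values do not measure variation between cultures: Fn1, Nid2, Ogn and Matn3 here, and Itga2, Ltbp1 and Ltbp2 among the lists that follow. With a single deposited value in at least 1 group there were 13 of the 16, and 2001 of the 3548 called among all genes. Loxl4, Pcolce, Lox, Mmp8, Mmp1 and Mmp13 had it in 1 group, where their p-values take in no variation between cultures. The calls of Fn1 and Nid2 ended without experiment 1 (adjusted p = 0.0978 and 0.100) or experiment 2 (0.0921 each). With an array or an experiment left out, the call of Ogn ended in 3 of 9 settings and that of Matn3 in 6.

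Of 10 collagen receptors 0 rose and 1 fell, the integrin gene Itga2 at -0.31 (limma's adjusted p = 0.0230). Of 16 genes for collagen-cleaving enzymes and their inhibitors 1 rose and 2 fell: Mmp8, a collagenase of neutrophils, at 0.48 (0.00303), Mmp1 at -0.51 (0.00136) and Mmp13 at -0.24 (0.0195), all of them dim, with mean signals from 4.70 to 5.54. Of 14 genes of TGF-beta signalling, the best known inducer of fibrillar collagen genes, 1 rose and 2 fell. The ligand gene Tgfb2 stood at 10.20, 10.25 and 10.04 with control shRNA and at 9.66, 9.63 and 9.52 with Ncoa3 shRNA, below all controls, and it changed by -0.31 ± 0.06 (SE; adjusted p = 0.0149). The latent TGF-beta binding proteins went opposite ways, Ltbp1 at 0.51 (0.00545) and Ltbp2 at -0.30 (0.0370). With an array or an experiment left out, the call of Tgfb2 ended in 6 of 9 settings and that of Ltbp2 in 7. Those of Itga2 and Mmp13 ended in 6 each, and those of Ltbp1, Mmp1 and Mmp8 in 2 each.

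Between experiments, some of these genes had a larger difference of experiment 3 than any collagen. Itga11, the integrin chain that binds collagen I, stood at 9.03, 8.69 and 7.72 with control shRNA and at 8.83, 8.32 and 7.63 with Ncoa3 shRNA. It was lowest in experiment 3 in both groups, by 1.15 and 0.95 below the mean of the others in the deposited values (limma's F test, adjusted p = 0.0661 there and 0.0333 after quantile normalization). P3h3 and P3h4, partners in the modification of collagen lysines, were lower in experiment 3 too, with deposited differences of -0.64 and -0.77 for P3h3 and -0.62 and -0.74 for P3h4 with control and Ncoa3 shRNA (adjusted p = 0.0597 and 0.0706, and 0.0377 and 0.0401 after quantile normalization). These 3 genes and Lum were named after their values were seen.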

How the data were processed

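The authors deposited log2 signals, 1 for each array and probe set. The submitters' processing notes name Affymetrix Expression Console; the sources used here give no version, summarisation, normalization or build. Between 32.7% and 42.7% of the 36685 probe sets on an array shared their exact value with another probe set. Gene names came from the annotation of the platform (18511 with 1 symbol, 575 with several, 17599 unnamed), and all 36 collagen genes matched RefSeq (GRCr8) by gene ID. Signals were quantile normalized over the 6 arrays and compared by limma (version 3.58.1, R version 4.3.3; lmFit, eBayes with a trend, two-sided, Benjamini-Hochberg over 18166 genes). On simulated data with 200 genes changed 1.5-fold, the group test recovered 92.5% and the F test over experiments 68.0%. The simulated noise was independent between arrays, and its SD came from the fit with the experiment as a block. It held no shared differences between experiments, so these shares can be higher than on the real arrays. Experiment numbers mark shared experiments per the labels, and deviations from the group means of same-numbered arrays correlated at r = 0.72, 0.55 and 0.78 over genes. Values were given in full for the 4 brightest fibrillar, all type IV and the 6 brightest other collagens. The same was done for calls of at least 1.5-fold and for the 5 called collagens with the largest difference of experiment 3. Up to 4 called genes per pathway list were named. Array values were given for Adamts2, Nid2, Fn1 and Tgfb2 of these, and the change and adjusted p for the others. Members, lists and rules were chosen with earlier results of these data known. Whether the cultures of a group are independent is as the labels state; the number of arrays limits the precision.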

Additional observations from a re-analysis of the deposited data

How the results depend on the processing

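Of the 36 collagens, limma called 5, and 29 with the deposited values, 3 with median centring, 18 with the experiment as a replicate block and 29 with both the deposited values and the block, the last chosen after seeing the data. For fibrillar collagens these counts were 1, then 10, 0, 7 and 10, and 0 with genes of mean signal under 5 left out (3 had an unadjusted p under 0.05 there, and 2 with median centring). For type IV they were 1, then 3, 0 (2 unadjusted), 3 and 3, and for the others 3, then 16, 3, 8 and 16. The pathway lists gave 16, then 60, 9, 39 and 71, and all genes 3548, then 8579, 1868, 7147 and 10932. Leaving out an array or an experiment gave 0 to 22 collagens, 0 to 8 fibrillar, 0 to 3 type IV, 0 to 11 others, 0 to 46 pathway genes and 0 to 8354 genes in all (3071 unadjusted at 0). The 14 collagens called between experiments became 0 with the deposited values (5 unadjusted), 0 without a trend (22 unadjusted) and 0 without any of the experiments. In the deposited values, where the offset of -0.25 is left in, 21 of the 36 collagens changed from above 0 to below 0. Among the genes chosen by the naming rule and called in either analysis these were, with or without the block, Col1a2 (-0.16), Col4a3 (-0.22), Col4a5 (-0.16), Col13a1 (-0.16), Col26a1 (-0.040) and Col12a1 (-0.28), and Lox (-0.063) turned too. Col8a2 (-0.22) turned as well and was called there only with the block. Dropping the trend, averaging probe sets and the filter on dim genes left the other counts within 1.5 times.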
